A study of Mus musculus with 2 samples.

Results

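The accessible chromatin at 8 genes of the NRF2 oxidative stress response was described in mouse liver with and without METTL3, the enzyme that writes N6-methyladenosine on RNA, in hepatocytes. The genes were taken by name: Nfe2l2, which encodes the transcription factor NRF2, its inhibitor Keap1, and the target genes Nqo1, Gclc, Gclm, Hmox1, Txnrd1 and Srxn1. Of 69549 distinct accessible regions in the series, 16 had one of these genes as the owner of the closest transcription start site (TSS). Of these, 7 were promoter regions, with a centre within 1000 bp of the TSS, out of 14387 promoter regions in all. The other 9 lay further away, out of 55162 such regions. Txnrd1 had a distal region but no promoter region by this rule.

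ATAC-seq, in which the Tn5 transposase cuts and tags open chromatin, was run on liver nuclei of 2 groups of C57BL/6 mice aged 8 weeks on a normal chow diet. Mettl3 flox/flox mice carry Mettl3 alleles with loxP sites around exons 2 and 3, and no Cre is given for them. Mettl3-HKO mice carry the same floxed alleles and Alb-Cre+/-, a Cre recombinase under the albumin promoter, which is active in hepatocytes. Other liver cells, such as endothelial cells and macrophages, are not targeted by it. Each group was 1 library made from the pooled livers of 4 mice, so no spread between mice can be given and no p-value was computed. Every interval here is a 95% interval of counting error alone.

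NRF2 is held at a low level by KEAP1, which hands it to a CUL3 ubiquitin ligase for degradation. When oxidants or electrophiles modify cysteines of KEAP1, NRF2 accumulates in the nucleus, pairs with a small MAF protein and binds antioxidant response elements (AREs) near its target genes. In liver this response supplies glutathione, NADPH-dependent reductases and enzymes that clear drugs and haem.

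The promoter windows of 4 members are shown because they carry the ARE letters, the sequence through which NRF2 acts, or, for Txnrd1, because the window locates an alternative start of a gene that had no promoter region at its listed TSS. Each is the 250 bases before a RefSeq transcription start (GRCm38.p6), written 5′ to 3′ on the strand of the gene. Capitals mark matches on either strand to the ARE letters TGACNNNGC, to the related form TGAGNNNGC, or to the AP-1 letters TGACTCA and TGAGTCA, which are reverse complements of each other.
Nfe2l2, chr2:75704664-75704913, minus strand: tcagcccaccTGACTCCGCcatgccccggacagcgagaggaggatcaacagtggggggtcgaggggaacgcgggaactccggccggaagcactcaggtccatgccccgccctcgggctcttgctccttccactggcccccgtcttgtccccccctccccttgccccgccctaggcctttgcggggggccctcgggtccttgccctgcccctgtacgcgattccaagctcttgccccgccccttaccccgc
Srxn1, chr2:152105274-152105523, plus strand: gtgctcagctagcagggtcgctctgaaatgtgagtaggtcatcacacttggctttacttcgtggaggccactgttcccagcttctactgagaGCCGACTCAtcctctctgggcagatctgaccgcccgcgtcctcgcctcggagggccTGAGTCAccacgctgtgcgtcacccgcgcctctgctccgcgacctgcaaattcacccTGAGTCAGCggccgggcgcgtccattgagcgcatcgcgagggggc
Gclm, chr3:122245307-122245556, plus strand: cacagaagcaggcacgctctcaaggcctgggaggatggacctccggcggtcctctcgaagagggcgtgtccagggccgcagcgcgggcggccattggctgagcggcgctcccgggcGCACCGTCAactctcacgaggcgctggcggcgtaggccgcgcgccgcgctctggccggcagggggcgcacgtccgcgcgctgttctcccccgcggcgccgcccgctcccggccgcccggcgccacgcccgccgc
Txnrd1, chr10:82858956-82859205, plus strand: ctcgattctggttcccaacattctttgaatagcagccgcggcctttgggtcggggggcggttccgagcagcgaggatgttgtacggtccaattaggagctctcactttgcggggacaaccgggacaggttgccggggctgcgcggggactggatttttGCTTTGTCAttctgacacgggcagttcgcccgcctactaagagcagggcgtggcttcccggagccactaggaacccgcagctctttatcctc

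RefSeq promoter windows, of 250 bases before and 50 after a start, were matched for 6 of the 8 members, which had 8 windows among 32851 in all. Gclc and Hmox1 had no entry. TGACNNNGC was found in 4 of the 8 member windows and in 12.4% of all windows. In Nfe2l2 it began 240 bases before the start, in Gclm 134 bases before it on the opposite strand, and in Txnrd1 92 bases before it, also on the opposite strand. The Srxn1 window held it after the start, outside the printed bases. Letters of the ARE were thus present in the window of the gene for NRF2 itself as well as in target genes. Whether NRF2 binds there was not tested.

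TGAGNNNGC, which was searched after the sequences had been seen, was found in the Srxn1 window alone among the members and in 17.6% of all windows. At least 1 of the 2 forms was found in 4 of 8 member windows and in 27.8% of all windows. Srxn1 held it at 2 places before the start, and the place nearer the start overlapped an AP-1 match. The AP-1 letters were found in 1 of 8 member windows, again that of Srxn1, and in 5.20% of all. The GC box, GGGCGG, was found in 6 of 8 member windows and in 35.7% of all, and the E-box CACGTG in 0 of 8 and in 7.15% of all. Neither ARE form was found in the windows of Nqo1 and Keap1. The member windows ranged from 48.0% G and C, in 1 of the 3 windows of Txnrd1, to 79.7% in Gclm, and from 3 CpG dinucleotides, in another window of Txnrd1, to 48 in Gclm, where the median of all windows was 52.7% with 7.

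The libraries held about 52800000 reads for Mettl3 flox/flox and 58000000 for Mettl3-HKO by the authors' scaling, of which 31.7% and 22.3% fell in the accessible regions. All ratios are log2 ratios of RPM (reads scaled by the library total), Mettl3-HKO over Mettl3 flox/flox, with 1 read added to each count. Their median was −0.56 over all promoter regions and −0.27 over all other regions, so a ratio below 0 was the common state of a promoter in these libraries. Centring on the median of all regions, on the strongest 10% of promoter regions, or on the reads in regions would add 0.38, 0.65 or 0.51 to every ratio. A region entered the table when a peak was called in either library, so a region with a peak in 1 library alone entered through the library where it was high. Of all promoter regions 2-fold higher in Mettl3-HKO, 84.8% had a peak in that library alone. The position of a gene among the others and the difference between a pair of regions do not move with the choice of scaling. The Mettl3 promoter region, which lies outside the question of whether the floxed exons were deleted, held 566 and 392 reads, a log2 ratio of −0.66.

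All 7 member promoters had a lower RPM in the Mettl3-HKO library, none by as much as 2-fold, although Gclm, Gclc and Hmox1 were above 0 when centred on the strongest 10% of promoters. Srxn1 and Nfe2l2 were among the lowest, at log2 ratios of −0.80 and −0.74, and Gclm was the highest, at −0.29. The median was −0.72, and it stayed below 0 under every scaling tried, at −0.34 to −0.075. The intervals of 7 of 7 lay below 0 on the scale of the library totals, as did those of 72.4% of all promoter regions. Centred on the median of all regions, on the strongest 10% of promoters or on the reads in regions, the intervals of 4, 2 and 3 of the 7 did. The share of all promoter regions under those scalings was not computed, so the 72.4% is no background for these counts. Of the members, 0 promoters were 2-fold lower and 0 were 2-fold higher, beside 16.3% and 4.07% of all promoter regions. An interval wholly above 0 was found for 0 members and for 8.08% of all promoter regions.

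**Figure D1:**
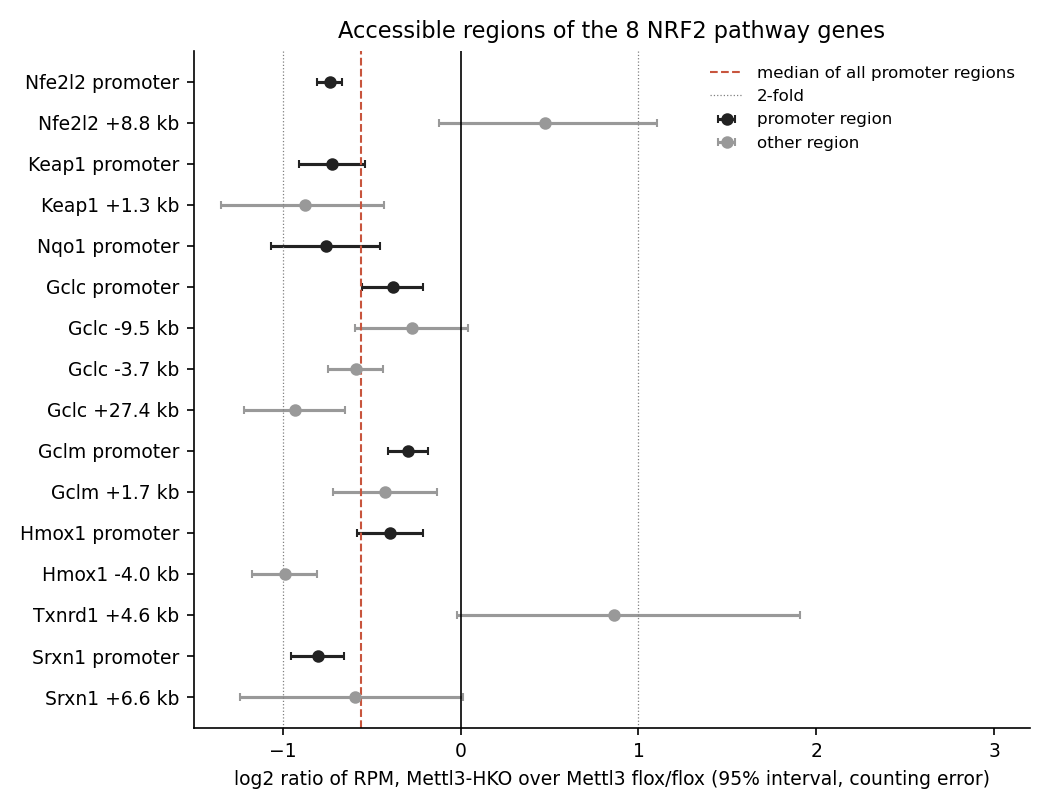
Log2 ratio of RPM, Mettl3-HKO over Mettl3 flox/flox, for the 16 regions of the members, with 1 library per group. Points are ratios, bars 95% intervals of counting error, and the dashed line is the median of all promoter regions; the 7 promoters run from −0.80 to −0.29, and the Nfe2l2 and Txnrd1 intron regions are the points above 0.

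Against the promoter median the members fell on both sides: 4 were below it and 3 above. The intervals of Nfe2l2 and Srxn1 lay wholly below the median, which was the case for 29.5% of all promoter regions. Those of Gclc and Gclm lay wholly above it, as for 29.0% of all. Keap1, Nqo1 and Hmox1 had intervals that included the median.

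Nfe2l2 had by far the most signal of the members. Its promoter region, chr2:75703365-75705473 on GRCm38, was 2109 bp long and ran from intergenic sequence through exon 1 into intron 1. It held 3889 reads in Mettl3 flox/flox and 2564 in Mettl3-HKO, or 73.6 and 44.2 RPM. The log2 ratio was −0.74 (interval −0.81 to −0.66), at percentile 34.1 of all promoter regions. Per base, the region was 95.4 times as densely read as the genome in Mettl3 flox/flox and 57.2 times in Mettl3-HKO, a fold enrichment at percentile 97.3 of promoter regions in the first library. The promoter of the NRF2 gene was thus among the most open in this liver and lay a little below the middle of the ratios.

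Keap1, whose product holds NRF2 down, had 599 and 399 reads at its promoter region (chr9:21238422-21239476, intergenic to 5′ UTR). Its log2 ratio of −0.72 (−0.91 to −0.54) was close to that of Nfe2l2. The difference between the gene for the factor and the gene for its inhibitor was 0.015 (−0.19 to 0.21), within counting error.

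Among the targets, Gclc and Gclm encode the catalytic and the modifier subunit of glutamate-cysteine ligase, which catalyses the rate-limiting step of glutathione synthesis. The Gclc promoter region (chr9:77754354-77755178, centred on the 5′ UTR) held 612 reads in Mettl3 flox/flox and 516 in Mettl3-HKO, a log2 ratio of −0.38 (−0.55 to −0.21). At the Gclm promoter region (chr3:122245230-122246315, centred on the 5′ UTR) the counts were 1331 and 1192, a log2 ratio of −0.29 (−0.41 to −0.18). Both subunits of the enzyme stood in the upper part of the promoter ratios, at percentiles 66.2 and 72.3. The direction of both changed with the scaling: centred on the strongest 10% of promoter regions, the ratios were 0.26 and 0.35.

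Hmox1 encodes haem oxygenase 1, the inducible enzyme that opens the haem ring. Its promoter region (chr8:75093401-75093925, centred on the 5′ UTR) held 538 and 449 reads, a log2 ratio of −0.40 (−0.58 to −0.21), which became 0.25 on the strongest 10% of promoters. At percentile 65.0 it stood beside Gclc.

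Nqo1 and Srxn1 encode reductases: NQO1 reduces quinones by a pair of electrons, and sulfiredoxin restores overoxidised peroxiredoxins. The Nqo1 promoter region (chr8:107402963-107403769, intergenic to intron 1) was the weakest of the members, with 228 and 148 reads and a fold enrichment of 14.7 and 8.69. Its log2 ratio was −0.76 (−1.07 to −0.45). The Srxn1 promoter region (chr2:152105109-152106233, centred on the 5′ UTR) held 972 and 612 reads, a log2 ratio of −0.80 (−0.95 to −0.66), at percentile 28.6. Srxn1, with the AP-1 and TGAGNNNGC matches printed above, had the lowest ratio of the member promoters, and its interval overlapped that of Nqo1.

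**Figure D2:**
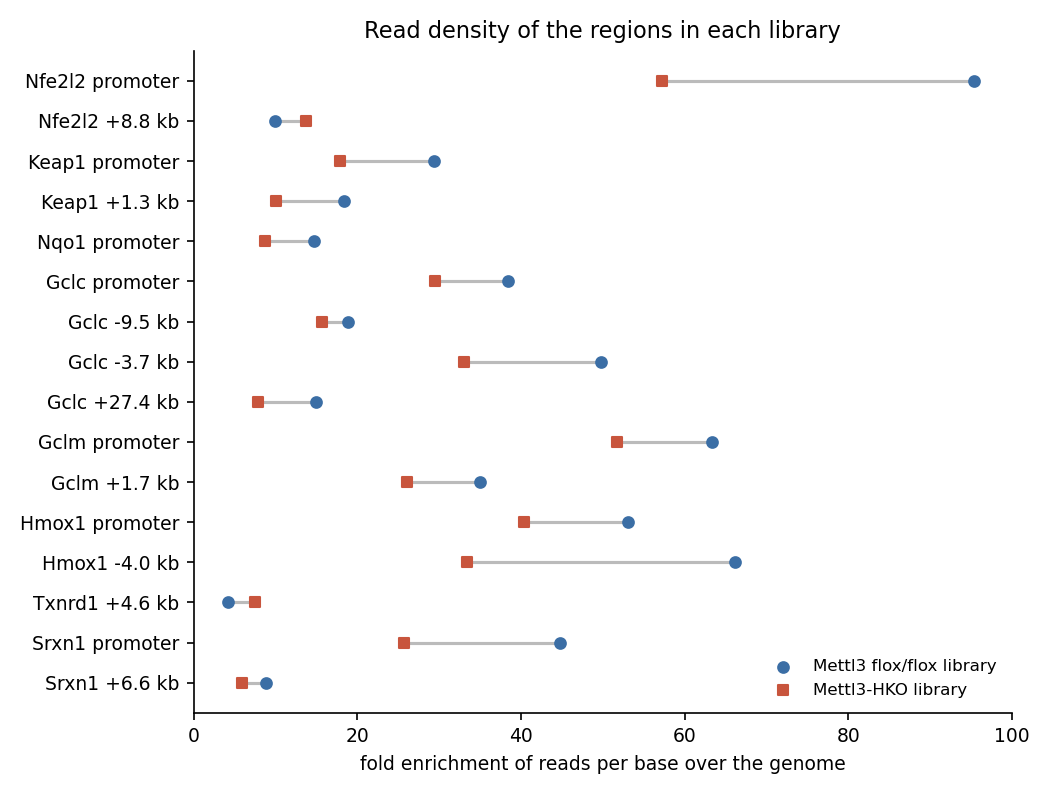
Fold enrichment (reads per base in the region over reads per base in the genome) of the member regions in the Mettl3 flox/flox and Mettl3-HKO libraries, 1 library each. The Nfe2l2 promoter is the densest, at 95.4 and 57.2, and the Hmox1 region upstream of the gene the next in the Mettl3 flox/flox library, at 66.1 and 33.4.

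In order from highest to lowest, the promoters were Gclm, Gclc, Hmox1, Keap1, Nfe2l2, Nqo1 and Srxn1, and all 21 pairs were compared by the difference of their log2 ratios, with intervals widened for the 21 comparisons. No neighbours in that order had a widened interval that excluded 0. Hmox1 and Keap1, between which the order had its widest gap, differed by 0.33 (0.062 to 0.59, widened −0.079 to 0.73). In 7 pairs the widened interval excluded 0. Gclm was above Srxn1 by 0.51 (widened interval 0.22 to 0.80), above Nfe2l2 by 0.44, and above Keap1 by 0.43. Gclc was above Srxn1 by 0.42 and above Nfe2l2 by 0.35, and Hmox1 was above Srxn1 by 0.41 (0.042 to 0.77) and above Nfe2l2 by 0.34. The other 14 intervals included 0, which does not show that those promoters act alike. Without widening, 12 pairs excluded 0, each of them Gclm, Gclc or Hmox1 against Keap1, Nfe2l2, Nqo1 or Srxn1. With 1 library per group, these intervals compare the libraries and not the genotypes.

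Promoter ratios moved with signal across the series. Over 4 groups of equal size by mean RPM, the median log2 ratio of promoter regions was −0.11 in the weakest and −0.55, −0.63 and −0.64 in the others. A 2-fold higher value was found for 14.4% of the weakest group and for 0.0278% of the strongest. The weakest group held 0 member promoters, the next 1, and the upper groups 3 each. Among the 9130 promoter regions within the members' range of mean RPM, from 3.45 to 58.9, the median was −0.63 and the 10th and 90th percentiles were −1.12 and −0.21, so all 7 members lay inside that span.

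**Figure D3:**
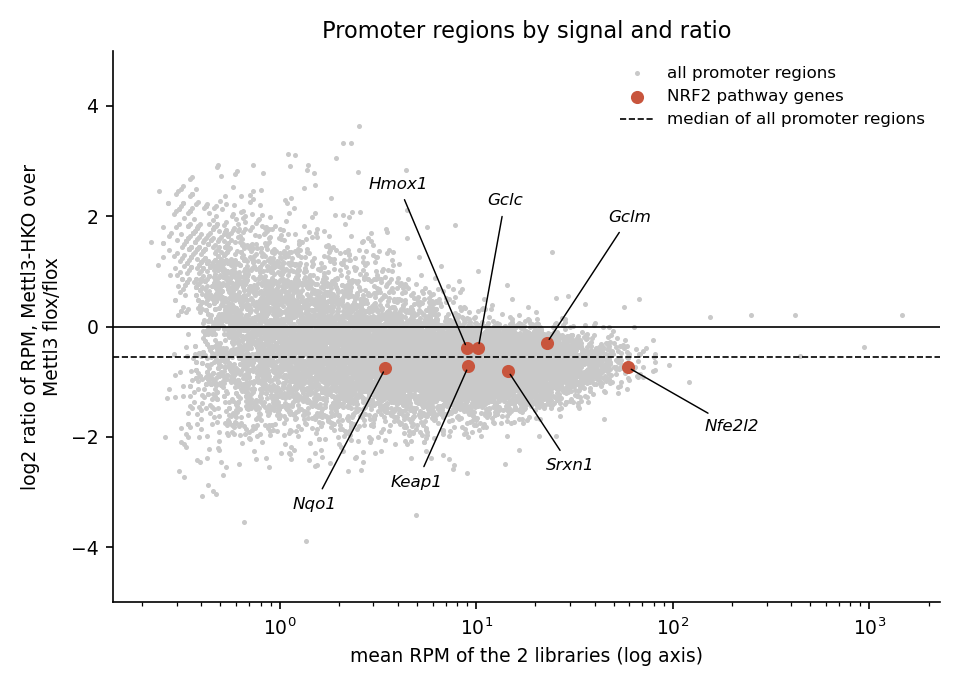
Log2 ratio of RPM, Mettl3-HKO over Mettl3 flox/flox, against the mean RPM of the 2 libraries on a log axis, for all 14387 promoter regions (grey) and the 7 member promoters (red). The members lie between 3.45 and 58.9 RPM, inside the grey cloud and on both sides of its median of −0.56 (dashed line).

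The 9 regions away from promoters had a median log2 ratio of −0.59, from −0.99 to 0.86, and the median was 0.056 when centred on the strongest 10% of promoters. Of the 9, 0 were 2-fold lower and 0 were 2-fold higher on the library totals, beside 18.8% and 15.6% of all other regions. Under the same 3 scalings 1, 2 and 1 were 2-fold higher. Those scalings raise every ratio, and the share of all other regions under them was not computed. The 15.6% is therefore no background for these counts. On the library totals the interval lay below 0 for 5, beside 42.5% of all, and above 0 for 0, beside 24.5%. Under the other scalings, the interval was above 0 for 2, 3 and 2, again with no share of all other regions computed. Against the median of their class, the intervals of 4 lay below it and of 2 above it, beside 31.1% and 33.1%. Both of those above, in Nfe2l2 and Txnrd1, had a peak in Mettl3-HKO alone, and 1 of the 4 below, in Keap1, had a peak in Mettl3 flox/flox alone, so these 3 entered the table through the library where they were high.

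The lowest ratio of all 16 regions belonged to a region upstream of Hmox1, centred 4011 bp before its TSS (chr8:75089340-75089880, intergenic). It held 691 reads in Mettl3 flox/flox and 383 in Mettl3-HKO, more than the Hmox1 promoter in the first library and fewer in the second. The log2 ratio was −0.99 (−1.17 to −0.80), and the fold enrichment was 66.1 and 33.4, at percentile 98.7 of other regions in Mettl3 flox/flox. Its ratio was below that of the Hmox1 promoter by a difference of −0.59 (−0.85 to −0.33, or −0.95 to −0.23 when widened for 8 such comparisons within genes).

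Gclc had 3 regions beside its promoter. The one in intron 6 (chr9:77781482-77782468), 27439 bp after the TSS, held 285 and 164 reads, a log2 ratio of −0.93 (−1.22 to −0.65). It was below the Gclc promoter by a difference of −0.55 (widened interval −1.02 to −0.091). The region 3729 bp before the TSS (chr9:77750395-77751217) was as dense as many promoters, with 791 and 577 reads and a fold enrichment of 49.7 and 33.0. Its log2 ratio of −0.59 (−0.75 to −0.43) differed from that of the promoter by −0.21 (−0.44 to 0.025). The region 9499 bp before the TSS (chr9:77744797-77745275) held 174 and 158 reads, a log2 ratio of −0.27 (−0.59 to 0.044). Within this one gene, the region in intron 6 therefore stood apart from the promoter, and the upstream regions did not differ from it beyond counting error.

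A small region in intron 1 of Nfe2l2 (chr2:75695785-75695993), 8752 bp after the TSS, held 39 reads in Mettl3 flox/flox and 60 in Mettl3-HKO, with a peak called in the Mettl3-HKO library alone. The log2 ratio was 0.47 (−0.12 to 1.11), an interval that includes 0. Since it entered the table through the library where it was high, no comparison with the Nfe2l2 promoter is given.

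Keap1, Gclm and Srxn1 had 1 distal region each. Keap1 had a region in exon 1 (chr9:21237405-21237719) with 111 and 66 reads, a log2 ratio of −0.88 (−1.35 to −0.43), and a peak called in Mettl3 flox/flox alone. Gclm had a region in intron 1 (chr3:122247109-122247427) with 215 and 176 reads, a log2 ratio of −0.42 (−0.72 to −0.13). Srxn1 had a region beyond its 3′ end (chr2:152111947-152112267) with 54 and 39 reads, a log2 ratio of −0.60 (−1.24 to 0.016). The differences from the promoter of the same gene were −0.13 (−0.45 to 0.19) for Gclm and 0.20 (−0.45 to 0.84) for Srxn1, both within counting error. None is given for the Keap1 region, which entered the table through the library where it was high.

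Txnrd1 encodes thioredoxin reductase 1, the selenoenzyme that keeps thioredoxin reduced. The region given to it (chr10:82838460-82838659, intron 1) was small, with 15 and 31 reads, a log2 ratio of 0.86 (−0.021 to 1.91), and a peak called in Mettl3-HKO alone. The listed TSS, at chromosome 10 position 82833951, lay in no accessible region. RefSeq places other starts of Txnrd1 further into the gene, and these lay in regions whose closest listed TSS was that of a gene without a symbol. The first of them (chr10:82858833-82859526), 25228 bp after the listed TSS, contained the Txnrd1 window printed above with its ARE letters. It held 642 reads in Mettl3 flox/flox and 538 in Mettl3-HKO, a fold enrichment of 47.9 and 36.5, and a log2 ratio of −0.39 (−0.56 to −0.22). A region that contained a further RefSeq start (chr10:82860073-82860766) held 458 and 282 reads, a log2 ratio of −0.83 (−1.05 to −0.62). Between them, a shorter region (chr10:82859631-82859917) held 171 and 148 reads, a log2 ratio of −0.34 (−0.67 to −0.018). Txnrd1 was thus open at internal starts with densities in the range of the member promoters, although the naming rule gave it no promoter. These regions were looked up after the absence of a Txnrd1 promoter had been seen and are in none of the member counts above. The first and the shorter region were centred at −171 and −765 bp from the TSS of a gene without a symbol. Both are thus among the 14387 promoter regions, and their signal cannot be given to Txnrd1 alone.

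**Figure D4:**
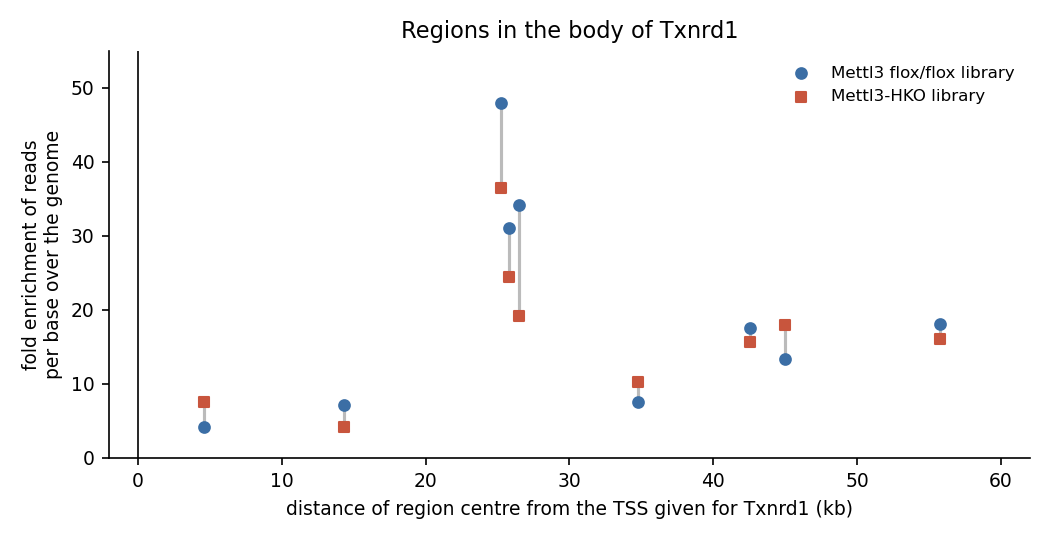
Fold enrichment (reads per base in the region over reads per base in the genome) of the 9 accessible regions in the Txnrd1 gene, by distance in kb from its listed TSS, in the Mettl3 flox/flox and Mettl3-HKO libraries. The 3 regions about 25 kb into the gene are the densest, the first at 47.9 and 36.5, and no region lies at the listed TSS.

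The rest of the pathway was read from lists of related genes. Of 12 NRF2 partners and regulators, 10 had a promoter region, with a median log2 ratio of −0.61 that became 0.039 on the strongest 10% of promoters. Of the 10, 0 were 2-fold higher and 0 were 2-fold lower, beside 4.07% and 16.3% of all promoter regions. Centred on the median of all regions, on the strongest 10% of promoters or on the reads in regions, 1, that of Mafk, was 2-fold higher. The shares of all promoter regions were then 6.90%, 9.86% and 8.33%. Maff and Mafk, which encode small MAF partners of NRF2, are named here after their values were seen. Maff was the lowest, at −0.89. Mafk was the exception to the direction, with 104 and 209 reads and a log2 ratio of 0.86 (0.53 to 1.22).

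Of 33 other NRF2 target genes, 29 had a promoter region, 36 regions in all, with a median of −0.54 that became 0.10 on the strongest 10% of promoters. Of the 36 regions, 27 were below 0 and 9 above, 4 were 2-fold higher and 3 were 2-fold lower, beside 4.07% and 16.3% of all promoter regions. Centred on the median of all regions, on the strongest 10% of promoters or on the reads in regions, 4, 8 and 5 were 2-fold higher, beside 6.90%, 9.86% and 8.33% of all promoter regions, and 0 were 2-fold lower, beside 720, 286 and 453 of all 14387 promoter regions. Of the 4 higher on the scale of the library totals, 3 had a peak in Mettl3-HKO alone, those of Akr1b8 and Gsta2, so that they entered the table through the library where they were high. Slc7a11, the cystine importer that feeds glutathione synthesis, had 58 reads in Mettl3 flox/flox and 202 in Mettl3-HKO, a log2 ratio of 1.65 (1.24 to 2.11), with a peak in both libraries. The aldo-keto reductase gene Akr1b8 had a pair of regions with 13 and 47 and with 8 and 31 reads, at log2 ratios of 1.64 and 1.69, and the glutathione transferase gene Gsta2 had 41 and 101 reads, at 1.14. The lower ones had more reads in Mettl3 flox/flox: Gsr, glutathione reductase, had 809 and 411, at −1.11, Tkt, transketolase, 342 and 179, at −1.07, and Cbr1, a carbonyl reductase, 243 and 129, at −1.04. The glutathione transferase genes have close paralogs that could share reads.

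Of 19 other antioxidant enzymes, 16 had a promoter region, 17 regions in all, with a median of −0.65 that became −0.0049 on the strongest 10% of promoters. Of the 17, 2 were 2-fold lower, beside 16.3% of all promoter regions: Prdx6, a peroxiredoxin, with 1676 and 691 reads and a log2 ratio of −1.41 (−1.54 to −1.29), and Glrx, glutaredoxin, with 172 and 72 reads, at −1.38. These were 2-fold lower also when centred on the median of all regions, and 0 were on the strongest 10% of promoters or on the reads in regions. Gpx1, a glutathione peroxidase, is named here after its value was seen, as the 1 region of this list above 0, with 376 and 488 reads and a log2 ratio of 0.24 (0.043 to 0.44). The medians of the 3 lists lay within the span of the member promoters.

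**Figure D5:**
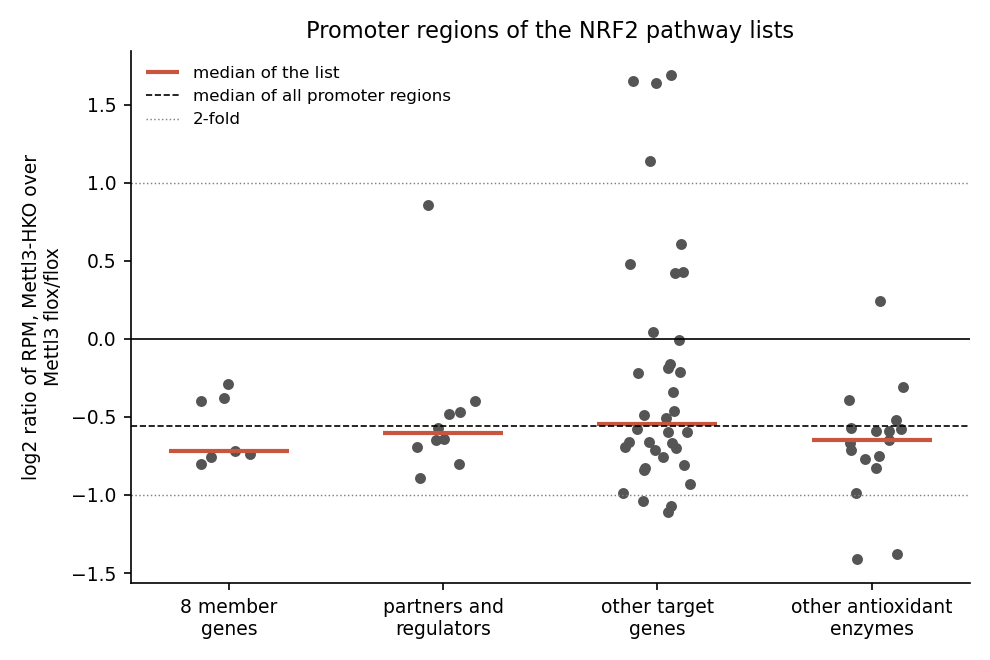
Log2 ratio of RPM, Mettl3-HKO over Mettl3 flox/flox, of the promoter regions of the members and of 3 related gene lists, 1 point per region, with the median of each list. Medians are −0.72 for the members, −0.61 for partners and regulators, −0.54 for other targets and −0.65 for other antioxidant enzymes.

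Promoter regions of cell type markers also differed between the libraries. Hepatocyte markers, with a promoter region for 7 of 8, had a median log2 ratio of −0.76, with a range of −1.32 to 0.015, wider than that of the members, and a summed signal of 60.7 and 40.8 RPM. Endothelial markers, 7 of 8, had a median of 1.60 and a summed signal of 2.90 and 6.89 RPM, and macrophage markers, 2 of 8, a median of 1.07 and 1.59 and 3.19 RPM. Of these, 5 of the 7 endothelial regions, which were all those 2-fold higher, and 3 of the 3 macrophage regions had a peak in Mettl3-HKO alone, and so entered the table through the library where they were high. Of all 14387 promoter regions, 1208 had a peak in Mettl3-HKO alone. The endothelial and macrophage regions held 8 to 89 reads in a library. All were in the weakest signal group, of which 14.4% were 2-fold higher. Stellate cell markers, 3 of 8, had a median of −1.05 and 14.3 and 3.29 RPM, of which Reln alone gave 13.1 and 2.29, while Col1a1 was at 0.076. Cholangiocyte markers, 5 of 8, had a median of −0.36 and 17.2 and 12.5 RPM, and lymphocyte markers 0 of 8. The part of cell makeup in the members' ratios was not tested. In whole liver, fewer cells of a type and less open chromatin per cell cannot be told apart.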

How the data were processed

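ATAC-seq of 2 pooled liver libraries was used. Following the study's methods, the authors trimmed with skewer and aligned with BWA. Pairs that aligned properly off the mitochondrial genome at a mapping quality filter of 13 were retained, duplicates included, and MACS2 called peaks in each library. The build is GRCm38 by the labels. How merged regions were counted, and any Tn5 shift, are not given in the sources used here. The deposited table holds counts per region, RPM, a ratio (fold enrichment over the genome) and the authors' log2 fold change, which was not used. RPM was (count + 1) times a factor rounded by the authors, so library totals are known to that rounding.

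Of 74821 rows, 5272 repeated a region and were dropped. Log2 ratios used counts plus 1. Intervals are 95% Clopper-Pearson intervals of the Mettl3-HKO share of a region's counts. Differences between regions used exact conditional odds ratio intervals, widened by Bonferroni. Kept duplicates make reads less independent than these assume. Median counts per region were 85 and 81. Region starts were converted to count from 1. Scripts (Python 3.11.15, pandas 2.3.3, scipy 1.17.1) were tested on simulated data. The text names every member, list genes 2-fold higher or lower, and the 3 highest and 3 lowest ratios over the 3 lists pooled. Exceptions are marked. Members and lists were chosen with earlier results of these data known. Other scalings, folds, windows and filters were tried.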

Additional observations from a re-analysis of the deposited data

How the results depend on the processing

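Directions depended on the scaling. Centred on the median of all regions, the median log2 ratio was −0.34 for member promoters, −0.23 for partners and regulators, −0.17 for other targets and −0.27 for other antioxidant enzymes. Intervals were then below 0 for 4 member promoters, and of the other member regions 2 had one above 0 and 1 was 2-fold higher. The share of all regions was not computed for these counts. The 2 regions, in Nfe2l2 and Txnrd1, had a peak in Mettl3-HKO alone and so entered the table through the library where they were high. The Gclm promoter was at 0.083 and the Gclc region 9499 bp upstream at 0.10. Centred on the strongest 10% of promoter regions, those medians were −0.075, 0.039, 0.10 and −0.0049, and 0.056 for other member regions. Intervals below 0 were found for 2 promoters and 2 other regions and intervals above 0 for 3 other regions, with no share of all regions computed. Of these 3, 2 were 2-fold higher, the same regions of Nfe2l2 and Txnrd1 with a peak in Mettl3-HKO alone. The promoters of Gclm, Gclc and Hmox1 were at 0.35, 0.26 and 0.25, Gclm in intron 1 at 0.22, Gclc 9499 and 3729 bp upstream at 0.37 and 0.056, and the Srxn1 distal region at 0.051. Scaled to the reads on all regions, the medians were −0.21, −0.095, −0.033 and −0.14, and −0.079 for other member regions. Intervals below 0 numbered 3 promoters and 2 other regions, again with no share of all regions computed. Intervals above 0 were 2 other regions, the same ones of Nfe2l2 and Txnrd1, and 1, that of Txnrd1, was 2-fold higher. The promoters of Gclm, Gclc and Hmox1 were at 0.22, 0.13 and 0.12, Gclm in intron 1 at 0.089 and Gclc 9499 bp upstream at 0.24. Which scaling is right was not tested. At a fold of 1.5, 4 promoters and 5 other regions were lower, beside 47.8% and 36.5% of all, and 1 other region was higher, beside 24.3%. Adding 10 reads, promoter windows of 500 or 2000 bp, the upper 50% of mean RPM, and the strongest region per gene changed no direction. Interval and list counts under these settings and the TGAGNNNGC search were chosen after seeing the data. No paired analysis was possible because each group is 1 library, and no library could be left out.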

Other observations

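Within member genes, 4 more regions lay closer to a TSS without a symbol than to that of the member. In Nfe2l2 intron 1 (chr2:75683028-75683228), 29 reads in Mettl3 flox/flox and 74 in Mettl3-HKO gave a log2 ratio of 1.19 (counting interval 0.58 to 1.89) with a peak called in Mettl3-HKO alone, the library through which it entered the table. In Gclm intron 1, chr3:122252576-122252819 held 78 and 40 reads, a log2 ratio of −1.08 (−1.69 to −0.53), with a peak in Mettl3 flox/flox alone, and chr3:122252909-122253471 held 109 and 75 reads, at −0.67 (−1.12 to −0.24). In Txnrd1 intron 1, chr10:82848100-82848420 held 43 and 27 reads, at −0.79 (−1.56 to −0.08). Further into Txnrd1, 4 regions closest to the TSS of Eid3 had log2 ratios of 0.43, −0.16, 0.43 and −0.18. The regions were looked up after the values of the members had been seen.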
